A study of Mus musculus with 9 samples.

Results

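The 10 genes described here are Ccl21a, Cd52, Selplg, Cd53, Dock2, Arhgdib, Rhoh, Was, Cytip and Laptm5. They were taken by exact symbol from the table of gene values, and the records of each symbol were summed within a library. All 10 were present and all 10 entered the test, out of 15593 symbols and 15372 tested genes. They were chosen by their measured levels in these libraries, since they peak in the library named mdx vehicle 1 and have smaller peaks in wildtype vehicle 1 and mdx GTx-026 2. That order of libraries is thus a description and carries no test.

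The study asked, by its title, how androgen receptor agonists act in models of Duchenne muscular dystrophy, a wasting disease of muscle. RNA with a poly(A) tail from gastrocnemius, a calf muscle, was sequenced on an Ion Torrent Proton. There were 3 groups of 3 libraries. Wildtype vehicle and mdx vehicle mice received the vehicle, and mdx GTx-026 mice, called treated from here on, received 10 mg/kg of GTx-026 under the skin. The compound is known here by its code name alone. Mice of the mdx line have a mutated dystrophin gene, Dmd, and all libraries, mdx included, have the strain label C57BL/6. The ages of the mice and the length of treatment are not given in the sources used here. No label links a library to 1 of the 3 animals of its group, so all spreads given are between libraries and may be in part technical. A library number is only a name and pairs no libraries across groups.

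Lymph nodes, spleen and other lymphoid organs hold dense populations of T and B lymphocytes on a scaffold of stromal cells. The stroma makes the chemokine that Ccl21a encodes, which draws in lymphocytes and dendritic cells that carry the receptor Ccr7. Crawling of these cells runs through small GTPases, above all Rac2, and through actin branching by the Arp2/3 complex. Limb muscle holds few lymphocytes when healthy, while dystrophic muscle is infiltrated by macrophages and, to a smaller degree, by lymphocytes. A lymph node lies in the fat behind the knee, next to the gastrocnemius. Apart from Ccl21a, the 10 genes are known from white blood cells in general and do not by themselves mark lymphoid organs.

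Values are CPM, a gene's reads for each M (mega) reads of its library, after the libraries were rescaled to each other. Estimated reads ran from 25.1 to 38.0 M a library and were fewest in mdx vehicle 1. The Dmd transcript, an indirect check of the labels because its mdx change is a premature stop, averaged 50.8 ± 9.30 CPM in wildtype libraries. It averaged 18.3 ± 5.97 CPM in the untreated and 16.6 ± 2.07 CPM in the treated mdx libraries (SD, n = 3 a group). The library mdx vehicle 1, which decides much of what follows, stood apart in other genes too. Its level of 12 slow-fibre genes, such as those of slow troponins and myosins, was −2.96 on the log2 scale, against −1.73 to 1.57 in the other 8 libraries. A list's level in a library is the median over its genes of log2(value + 1), each gene taken relative to its own median over the 9 libraries. For these levels the value is not the CPM but the rescaled signal, about 25.4 for each CPM.

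Across the 10 genes, the levels were 1.34, −0.56 and −1.37 in wildtype vehicle libraries 1 to 3. They were 3.31, −1.10 and 0.05 in mdx vehicle and −0.30, 1.32 and 0 in mdx GTx-026. Each group thus held 1 library far above its other 2. Among those other libraries, mdx vehicle overlapped with both groups, while wildtype vehicle lay below mdx GTx-026. Summed over the 10 genes, the reads came to 605.4 CPM in mdx vehicle 1, to 189.4 CPM in wildtype vehicle 1 and to 155.2 CPM in mdx GTx-026 2. The other 6 libraries lay between 20.6 and 78.8 CPM. More cells of a type and more RNA in each cell cannot be told apart in such bulk samples.

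**Figure D1:**
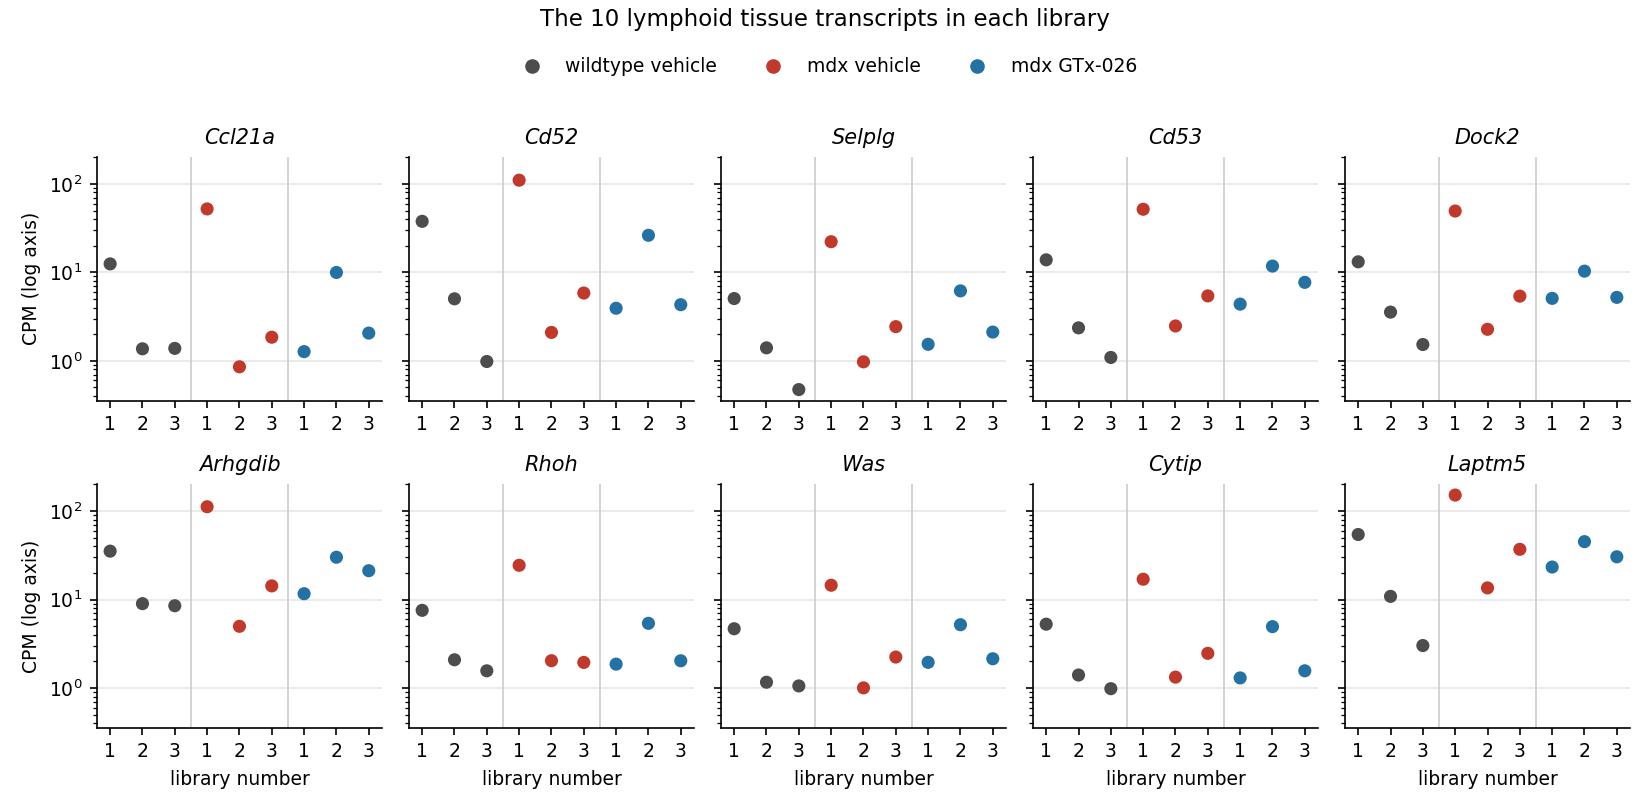
CPM of each of the 10 genes (log axis) in wildtype vehicle, mdx vehicle and mdx GTx-026 libraries 1 to 3, one point a library. In every panel mdx vehicle 1 is the highest point, and the next are wildtype vehicle 1 and mdx GTx-026 2, as at 110.2, 37.8 and 26.3 CPM for Cd52.

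Ccl21a (chromosome 4, 42772860 to 42773993, minus strand, GRCm38) is the single chemokine of the set and the member made by lymphoid stroma and lymphatic vessels rather than by white blood cells. It was at 12.5, 1.37 and 1.38 CPM in the wildtype vehicle libraries, at 52.2, 0.855 and 1.85 CPM in the mdx vehicle ones, and at 1.27, 9.97 and 2.06 CPM in the treated ones. It was the steepest of the 10 within mdx vehicle, where library 1 exceeded library 2 by 61.0-fold and library 3 by 28.2-fold. The 6 libraries outside the 3 peaks stayed between 0.855 and 2.06 CPM, a range in which the groups overlapped.

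Several near-identical copies of Ccl21a lie on the same chromosome. Of the 50-base words in the Ccl21a transcript, 71.6% were also found in Gm21541, 70.5% in Gm13304 and 30.8% in Ccl21b, so the counting may have split reads between them. Gm1987, a further listed symbol of this family, was at 11.4, 1.67 and 1.46 CPM in the wildtype vehicle libraries, 52.7, 1.33 and 2.17 CPM in the mdx vehicle ones, and 1.36, 10.1 and 1.92 CPM in the treated ones. Its ratio to Ccl21a ran from 0.911 to 1.55 over the 9 libraries. Ccl21b, Gm13304 and Gm21541 reached 9.96, 8.33 and 9.65 CPM in mdx vehicle 1. Outside the 3 peak libraries these 3 symbols stayed below 1 CPM. The peak of Ccl21a is therefore one of a family of copies, and its share among them is uncertain.

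**Figure D2:**
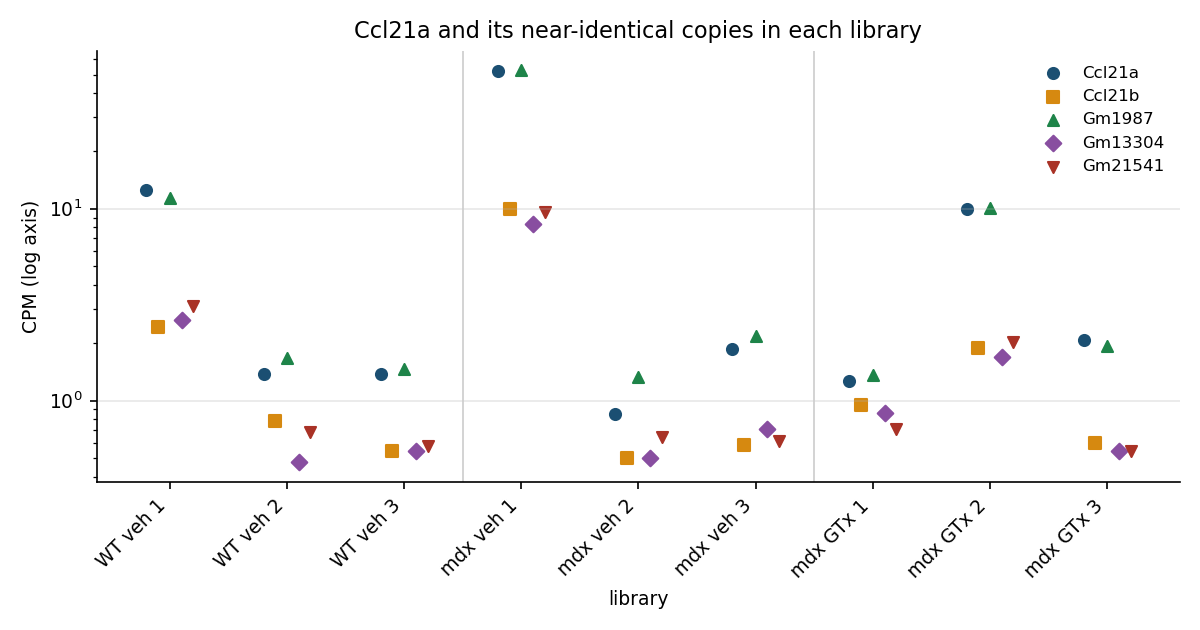
CPM (log axis) of Ccl21a and 4 near-identical copies in each of the 9 libraries, one point a gene and library. All 5 symbols peak in mdx vehicle 1, where Ccl21a stands at 52.2 and Gm1987 at 52.7 CPM, with lesser peaks in wildtype vehicle 1 and mdx GTx-026 2.

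The 3 cell-surface genes had the same 3 high libraries. Cd52 (chromosome 4, 134082448 to 134095082) encodes a short lipid-anchored glycoprotein that covers lymphocytes. Its values were 37.8, 5.02 and 0.982 CPM in the wildtype vehicle libraries, 110.2, 2.09 and 5.84 CPM in the mdx vehicle ones, and 3.93, 26.3 and 4.31 CPM in the treated ones. It had the widest range of the 10, 112.2-fold from the highest library to the lowest, wildtype vehicle 3. Exons of Crybg2 on the opposite strand overlap 14.5% of its exon bases, and whether the counting used strand is not stated.

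Selplg (chromosome 5, 113818536 to 113832644) encodes PSGL-1, the ligand by which white blood cells roll on P-selectin. It was at 5.06, 1.40 and 0.473 CPM in the wildtype vehicle libraries, 22.2, 0.973 and 2.43 CPM in the mdx vehicle ones, and 1.54, 6.17 and 2.11 CPM in the treated ones. The value in wildtype vehicle 3, an estimated 13 reads, was the lowest of any of the 10 genes in any library. Here mdx GTx-026 2 exceeded wildtype vehicle 1, which of the other genes held for Was alone.

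Cd53 (chromosome 3, 106759921 to 106790149) encodes a tetraspanin, a membrane protein with 4 spans, of white blood cells. Its values were 13.9, 2.36 and 1.09 CPM in the wildtype vehicle libraries, 51.7, 2.48 and 5.42 CPM in the mdx vehicle ones, and 4.37, 11.8 and 7.71 CPM in the treated ones. The treated libraries were closer to each other than for Cd52, with library 2 at 1.53 times library 3. The ranges of both untreated groups enclosed the treated range.

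Among the 4 genes of small GTPase signalling and actin control, Dock2 (chromosome 11, 34226815 to 34783892) encodes the exchange factor that loads Rac in lymphocytes. It was at 13.2, 3.55 and 1.53 CPM in the wildtype vehicle libraries, 49.4, 2.27 and 5.38 CPM in the mdx vehicle ones, and 5.08, 10.3 and 5.21 CPM in the treated ones. Again 1 library stood high in each group. Of the remaining 6, the mdx vehicle values overlapped with both other groups, and the wildtype values lay below the treated ones. An antisense transcript, 4930403D09Rik, overlaps 4.03% of its exon bases.

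Arhgdib (chromosome 6, 136923655 to 136941899) encodes the inhibitor that keeps small GTPases of blood cells in the cytosol. It was at 35.3, 8.99 and 8.51 CPM in the wildtype vehicle libraries, 112.0, 4.98 and 14.3 CPM in the mdx vehicle ones, and 11.6, 30.1 and 21.2 CPM in the treated ones. These sums rest on 7 sequence records, and each of the 7 was highest in mdx vehicle 1. Reads listed under more than 1 record would be summed repeatedly. Exons of Pde6h, on the other strand, overlap 7.97% of its exon bases.

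Rhoh (chromosome 5, 65861213 to 65896700, plus strand) encodes a small GTP-binding protein that cannot split GTP and takes part in signalling by the T-cell receptor. It was at 7.55, 2.08 and 1.56 CPM in the wildtype vehicle libraries, 24.4, 2.04 and 1.95 CPM in the mdx vehicle ones, and 1.86, 5.38 and 2.03 CPM in the treated ones. Its 6 low libraries were the most even of the 10 genes, from 1.56 to 2.08 CPM. The gene has 2 records, both highest in mdx vehicle 1.

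Was (chromosome X, 8081453 to 8090498) encodes WASP, which switches on the Arp2/3 complex and is lost in Wiskott-Aldrich syndrome. Its values were 4.68, 1.16 and 1.05 CPM in the wildtype vehicle libraries, 14.5, 1.00 and 2.24 CPM in the mdx vehicle ones, and 1.95, 5.19 and 2.14 CPM in the treated ones. The peak library exceeded the lowest by 14.5-fold, the narrowest range of the 10.

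The last pair act inside the cell. Cytip (chromosome 2, 58129137 to 58195532) encodes a scaffold that binds cytohesins and is known for loosening adhesion of lymphocytes and dendritic cells. It was at 5.26, 1.40 and 0.982 CPM in the wildtype vehicle libraries, 17.0, 1.33 and 2.47 CPM in the mdx vehicle ones, and 1.30, 4.94 and 1.56 CPM in the treated ones. The same 3 libraries were high as for Was, and the other 6 lay between 0.982 and 2.47 CPM.

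Laptm5 (chromosome 4, 130913125 to 130936141, plus strand) encodes a lysosomal membrane protein of blood cells that lowers antigen receptors on T and B cells. It was at 54.4, 10.9 and 3.02 CPM in the wildtype vehicle libraries, 151.8, 13.5 and 37.0 CPM in the mdx vehicle ones, and 23.3, 45.2 and 30.4 CPM in the treated ones. The lowest of its 3 peaks stood out least among the 10 genes. The library ranked 3 for it exceeded that ranked 4 by 1.22-fold, against 1.42-fold for Arhgdib, 1.53-fold for Cd53 and 4.85-fold for Ccl21a. Its range from the highest library to the lowest was still wide, at 50.3-fold. Over the 9 libraries its Pearson r with the median of the other members was 0.873, the lowest of the 10, where Was had the highest at 0.984. These libraries were the ones used to choose the genes, so both values are descriptions.

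Ratios between single libraries are given as a description, since the 10 genes were chosen for their peaks in 3 of these libraries. From wildtype vehicle 1 to mdx vehicle 1 the ratio ran from 2.79 for Laptm5 to 4.39 for Selplg, with a median of 3.23. From mdx GTx-026 2 to mdx vehicle 1 it ran from 2.80 for Was to 5.23 for Ccl21a, with a median of 3.96. Between the 2 lesser peaks, wildtype vehicle 1 over mdx GTx-026 2, it stayed between 0.819 and 1.44. Against a low library, where values rest on few reads, the spread was wider, and mdx vehicle 1 over mdx vehicle 2 ran from 11.2 for Laptm5 to 61.0 for Ccl21a, with a median of 21.3. Over all tested genes the median of each of these 4 ratios lay between 0.978 and 1.00, as rescaling the libraries to each other makes likely.

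**Figure D3:**
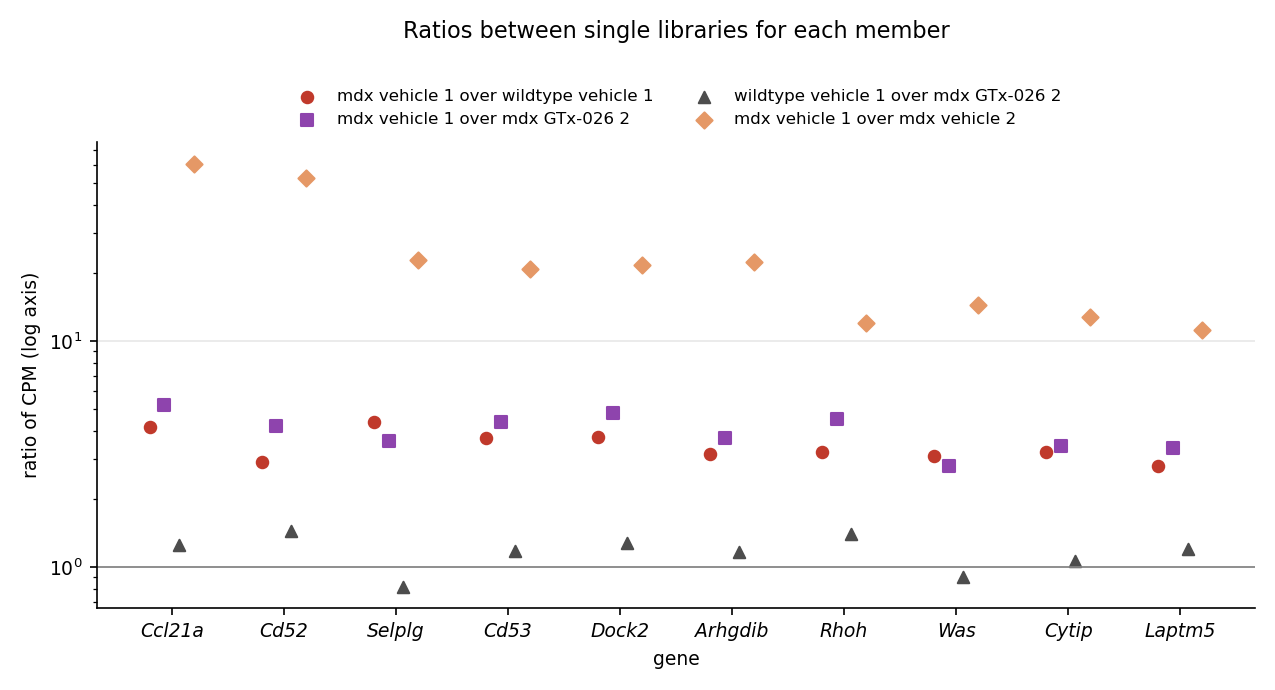
Ratio of CPM between named pairs of libraries (log axis) for each of the 10 genes, one point a gene and pair. Ratios among the 3 peak libraries lie within narrow bands, 2.79 to 4.39 for mdx vehicle 1 over wildtype vehicle 1, while mdx vehicle 1 over mdx vehicle 2 spreads from 11.2 to 61.0.

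Because single libraries carry the peaks, the group spreads were wide. In mdx vehicle the SD exceeded the mean for all 10 genes, as in Cd52 at 39.4 ± 61.4 CPM and Laptm5 at 67.5 ± 74.0 CPM (SD, n = 3). In wildtype vehicle this held for 6 genes, among them Cd52 at 14.6 ± 20.2 CPM, and in mdx GTx-026 for Ccl21a at 4.43 ± 4.81 CPM and Cd52 at 11.5 ± 12.8 CPM. Group means ran in the order mdx vehicle, then either of the other groups, for all 10 genes, and no neighbours in that order differed beyond their spread. The comparisons share libraries, so their values are not independent and are given side by side only. The genes were chosen for a high library in each group, which by itself widens the spread within groups and makes overlap likely. That no gene passed in the comparisons below, and that groups overlapped, thus says little about an effect of mdx or of the drug.

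Mutant muscle was set against healthy muscle in mdx vehicle and wildtype vehicle, where none of the 10 genes passed limma's test (Benjamini-Hochberg adjusted over all tested genes, threshold 0.05), against 0.332% of all tested genes. None reached an unadjusted p under 0.05 either, against 12.7% of all genes. All 10 had a positive log2 fold change, with a median of 0.95 against 0.009 over all genes and a range from 0.52 for Arhgdib to 1.80 for Laptm5. Adjusted p-values by limma ran from 0.494 for Laptm5 (SE of its log2 fold change 1.04) to 0.879 for Ccl21a (log2 fold change 0.61, SE 1.47). For none of the 10 did the groups fail to overlap, which 16.5% of all genes did. Without mdx vehicle 1 the median became −0.25 and 3 of 10 were positive, so the sign of the difference rested on that library. Without mdx vehicle 2 it was 1.86, without wildtype vehicle 1 it was 1.76, and without wildtype vehicle 3 it was 0.38.

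For the drug, treated mdx libraries were set against mdx vehicle, and none of the 10 genes passed limma's test, against 0.013% of all tested genes. None had an unadjusted p under 0.05, against 3.13% of all genes. All 10 had a negative log2 fold change, from −0.82 for Cytip (SE 0.94) to −0.04 for Arhgdib (SE 0.99), with a median of −0.44 against 0.008 over all genes. The limma adjusted p was 0.9998 for each. No gene of the 10 had groups without overlap, which 6.8% of all genes had. Without mdx vehicle 1 all 10 turned positive and the median became 0.88, so here too the direction rested on 1 library. The median was −1.33 without mdx vehicle 2, −0.75 without mdx vehicle 3, −0.88 without mdx GTx-026 2 and −0.06 without mdx GTx-026 1.

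Treated mdx muscle was also set against wildtype vehicle, a comparison that leaves out mdx vehicle 1 except in the shared estimate of the spread. None of the 10 genes passed limma's test, against 1.5% of all tested genes, and none had an unadjusted p under 0.05, against 12.7% of all genes. Of the 10 genes 9 were positive, with a median log2 fold change of 0.55 against 0.003 over all genes. The values ran from −0.09 for Rhoh to 1.38 for Laptm5, with limma adjusted p from 0.675 to 0.996. Groups overlapped for all 10, while 20.8% of all genes had groups without overlap. Without wildtype vehicle 1 the median was 1.38, without wildtype vehicle 3 it was −0.02, and without mdx GTx-026 2 it was 0.18.

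In the authors' deposited table, the 17 records of the 10 genes had wildtype over mdx vehicle ratios of 0.215 to 0.357 with p-values of 0.417 to 0.529. The mdx vehicle over mdx GTx-026 ratios in the authors' deposited table were 2.26 to 4.94, with p-values of 0.470 to 0.577. For wildtype over mdx GTx-026 the authors' deposited table had ratios of 0.665 to 1.21, with p-values of 0.585 to 0.941.

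Partners of the 10 genes were taken from a list of 38 receptors, chemokines, enzymes, GTPases and adaptors, of which 29 were tested. None of the 29 passed limma's test in any of the 3 comparisons (at an unadjusted p under 0.05 there was 1 in mdx vehicle against wildtype vehicle, none in mdx GTx-026 against mdx vehicle and 3 in mdx GTx-026 against wildtype vehicle). Of all tested genes, 0.332%, 0.013% and 1.5% passed in the same order. The shares at an unadjusted p under 0.05 were 12.7%, 3.13% and 12.7%. Several members of the list known from blood cells were highest in mdx vehicle 1, like the 10 genes. Rac2, the GTPase that Dock2 loads, was at 36.8, 5.60 and 2.04 CPM in the wildtype vehicle libraries, 132.2, 2.89 and 6.03 CPM in the mdx vehicle ones, and 6.38, 33.5 and 6.37 CPM in the treated ones. Nckap1l, a subunit of the actin-regulating WAVE complex of blood cells, and Dock8, an exchange factor for Cdc42, were at 28.3 and 29.1 CPM in mdx vehicle 1, against at most 9.77 and 10.7 CPM elsewhere.

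Several counterparts found in most cell types varied over narrow ranges. Rac1, the general form of Rac2, stayed between 175.7 and 215.1 CPM over the 9 libraries. Laptm4a, a relative of Laptm5, stayed between 217.3 and 266.2 CPM, and Cdc42, which activates Was, between 156.4 and 223.4 CPM. Within that range Cdc42 was the highest of each group in the same 3 libraries as the 10 genes. Nedd4, a ubiquitin ligase that sorts Laptm5 to lysosomes, was between 352.1 and 521.9 CPM and was lowest in mdx vehicle 1. Other partners varied more. Csk, a kinase that restrains Src-family kinases, was at 17.3, 8.17 and 7.31 CPM in the wildtype vehicle libraries, 36.9, 5.28 and 10.02 CPM in the mdx vehicle ones, and 9.93, 14.5 and 9.17 CPM in the treated ones, highest in the same 3 libraries. Arpc1b and Arpc2, subunits of the actin-branching Arp2/3 complex, also peaked in mdx vehicle 1, at 68.0 and 126.3 CPM, but were highest among treated libraries in mdx GTx-026 3, at 42.8 and 110.8 CPM. Over the whole partner list the level lay within −0.11 and 0.10 in every library.

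Markers of lymphocytes and of their tissue were mostly not analysed here, since few of them have values in this table. The smallest deposited signal above 0 was 10, and a record at 0 was at 0 in a whole group. The lowest record of the 10 genes was near that floor, at 10.96. Genes low in some libraries may thus lack values, and fold ranges that end near the floor may be limited by it. Of 25 T-cell markers 3 had values, and these include none of the chains of the Cd3 complex. Cd8a, a co-receptor of killer T cells, was at 13.2, 3.48 and 3.02 CPM in the wildtype vehicle libraries, 37.4, 3.51 and 3.63 CPM in the mdx vehicle ones, and 3.04, 9.69 and 3.51 CPM in the treated ones. For Cd8a the same 3 libraries were high as for the 10 genes, and the other 6 were nearly even. Bcl11b, a transcription factor of T cells, was also the highest of each group in those 3 libraries, at 2.84, 7.05 and 2.03 CPM. Cd28, a co-stimulatory receptor of T cells, was at 5.58, 6.87 and 4.51 CPM in the wildtype vehicle libraries, 9.59, 2.65 and 2.43 CPM in the mdx vehicle ones, and 2.275, 4.116 and 4.199 CPM in the treated ones. It peaked in mdx vehicle 1, but wildtype vehicle 2 exceeded wildtype vehicle 1 and mdx GTx-026 3 exceeded mdx GTx-026 2. Summed over its 3 markers, the T-cell list ran from 8.58 to 21.6 CPM in the wildtype vehicle libraries, 7.70 to 54.1 CPM in mdx vehicle and 6.80 to 15.8 CPM in mdx GTx-026.

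Of 25 B-cell markers 3 had values. Pou2af1, a co-activator of immunoglobulin genes, was at 6.69, 1.33 and 1.38 CPM in the wildtype vehicle libraries, 21.2, 1.74 and 1.95 CPM in the mdx vehicle ones, and 1.45, 8.58 and 1.67 CPM in the treated ones. Fcer2a, the low-affinity IgE receptor of B cells, was at 8.36 CPM in mdx vehicle 1, 6.20 CPM in wildtype vehicle 1 and 4.02 CPM in mdx GTx-026 2. Its other 6 values were between 1.43 and 2.11 CPM. Ebf1, a transcription factor of B cells that fat cells also express and the most abundant of the 3, was at 15.9, 8.88 and 9.57 CPM in the wildtype vehicle libraries, 18.4, 11.7 and 15.9 CPM in the mdx vehicle ones, and 14.3, 14.4 and 14.8 CPM in the treated ones. It was nearly even in the treated libraries, without the peak of the other B-cell markers in mdx GTx-026 2. The summed B-cell list ran from 11.7 to 28.8 CPM in the wildtype vehicle libraries, 15.5 to 48.0 CPM in mdx vehicle and 17.5 to 27.0 CPM in mdx GTx-026.

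The list of lymphoid stroma and chemokines had 5 of 18 genes with values, and neither Ccl19 nor Cxcl13 was one of them. Icam1 and Vcam1, adhesion molecules that stroma and activated endothelium carry, were at 31.6 and 19.2 CPM in mdx vehicle 1, against at most 9.91 and 9.53 CPM in the other 8. Both were the highest of each group in the same 3 libraries as the 10 genes. Unlike for Ccl21a, those 3 were not the highest of all libraries. Icam1 was at 7.59 CPM in wildtype vehicle 1, below 9.06 CPM in mdx GTx-026 3. Vcam1 was at 7.34 CPM in wildtype vehicle 1, below 8.69 CPM in mdx vehicle 3. Cxcl12, a chemokine of many stromal cells, was highest in wildtype vehicle 3 at 96.4 CPM. The lymphatic endothelium list, 6 of 9 genes, lay between −0.20 and 0.48 in all libraries, and its marker Lyve1 was highest in wildtype vehicle 2 at 5.19 CPM and at 1.10 CPM in mdx vehicle 1. With most defining markers not analysed here, the name lymphoid rests on few genes and is a label only.

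Other blood-cell genes moved with the 10 or apart from them, depending on the cell type. The pan-leukocyte list, with 11 of 26 genes tested, had levels of 0.84, −0.18 and −1.68 in wildtype vehicle, 2.22, −1.08 and 0.05 in mdx vehicle, and −0.17, 1.07 and −0.02 in mdx GTx-026. Over the 9 libraries its Pearson r with the level of the 10 genes was 0.974, and it was 0.973 without mdx vehicle 1 and wildtype vehicle 3, the 2 libraries farthest from the median. Coro1a, an actin-binding protein of white blood cells, was at 92.7, 12.2 and 2.62 CPM in the wildtype vehicle libraries, 261.3, 6.31 and 13.9 CPM in the mdx vehicle ones, and 11.1, 74.8 and 13.4 CPM in the treated ones. Cd74, the most abundant of the list, was also the highest of each group in the same 3 libraries. Of the 11 genes 10 were higher in mdx GTx-026 2 than in mdx GTx-026 1. The exception was Lsp1, at 71.7, 66.8 and 54.1 CPM in the treated libraries. None of the 11 passed limma's test in any comparison (1, Lsp1, had an unadjusted p under 0.05, in mdx vehicle against wildtype vehicle, where 12.7% of all tested genes did).

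The macrophage and monocyte list, 14 of 18 genes, did not follow the same order. Its levels were −1.10, −0.78 and −2.05 in wildtype vehicle, 0.30, −0.99 and 0.36 in mdx vehicle, and 0.19, 0.13 and 0.53 in mdx GTx-026. Its r with the 10 genes was 0.483, and 0.098 without the same 2 libraries. Single genes of the list differed. Cd68, Mpeg1, Fcgr3, Ly6c2, Cx3cr1 and Cd14 were highest of all libraries in mdx vehicle 1, at 61.2, 49.9, 24.6, 17.4, 7.90 and 6.62 CPM. Of these, Ly6c2 and Cx3cr1 were also the highest of each group in the same libraries as the 10 genes. C1qa, C1qb, C1qc, Csf1r, Mrc1, Cd163, Lyz2 and Fcgr1 were highest in other mdx libraries, untreated or treated. C1qb, a complement protein made by macrophages, was at 34.9 CPM in mdx vehicle 1 but at 50.6 CPM in mdx vehicle 3 and 9.18 CPM in wildtype vehicle 1. C1qc, from the same complement complex, rose in mdx GTx-026 against wildtype vehicle (log2 fold change 2.07, limma adjusted p = 0.0449), and 1 of the 14 passed there, against 1.5% of all tested genes. By limma's unadjusted p under 0.05 there were 11 of the 14, against 12.7% of all genes. Groups did not overlap for 12, against 20.8%. In mdx vehicle against wildtype vehicle 8 had an unadjusted p under 0.05, against 12.7%. In mdx GTx-026 against mdx vehicle it was 1 gene, against 3.13%. Dendritic-cell markers, 5 of 12, lay between −0.50 and 0.72, plasma-cell markers, 4 of 9, between −0.40 and 0.64, and the 2 of 11 markers of natural killer cells between −0.59 and 0.52. The dendritic and plasma-cell lists were highest in mdx vehicle 1. Of the other list genes, Hbb-b1 and Hbb-b2 of the haemoglobin beta chains, near-identical genes that may share reads (log2 fold change 3.67 and 4.11), Pdpn of lymphatic vessels and stroma (1.57) and Rrm2 of dividing cells (2.06) rose in the treated libraries against wildtype vehicle (limma adjusted p = 0.0147, 0.0185, 0.0138 and 0.0384). The other haemoglobin beta genes of the list, Hbb-bs and Hbb-bt, had log2 fold changes of −0.83 and −0.60 in the same comparison and did not pass (limma adjusted p = 0.877 and 0.901). Which of these genes was higher differed between libraries. Hbb-bs and Hbb-b1 were at 109.9 and 17.7 CPM in wildtype vehicle 1 but at 19.65 and 323.4 CPM in mdx GTx-026 1. In mdx vehicle they were at 5.055 and 91.6 CPM in library 1 and at 164.3 and 35.3 CPM in library 2. The calls are of single genes, and a change in total haemoglobin beta transcript was not tested. Each of the 5 calls, that of C1qc included, was lost without some single libraries. C1qc lost it with a constant prior variance and without any 1 of the 3 wildtype or 3 treated libraries (limma adjusted p up to 0.173). Rrm2 lost it without any of these 6 but wildtype vehicle 1 (up to 0.139). Hbb-b1 lost it without wildtype vehicle 2, mdx GTx-026 1 or mdx GTx-026 2 (up to 0.0753), and Hbb-b2 without these or wildtype vehicle 3 (up to 0.0822). Pdpn lost it without wildtype vehicle 3, mdx GTx-026 1 or mdx GTx-026 3 (up to 0.0755).

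**Figure D4:**
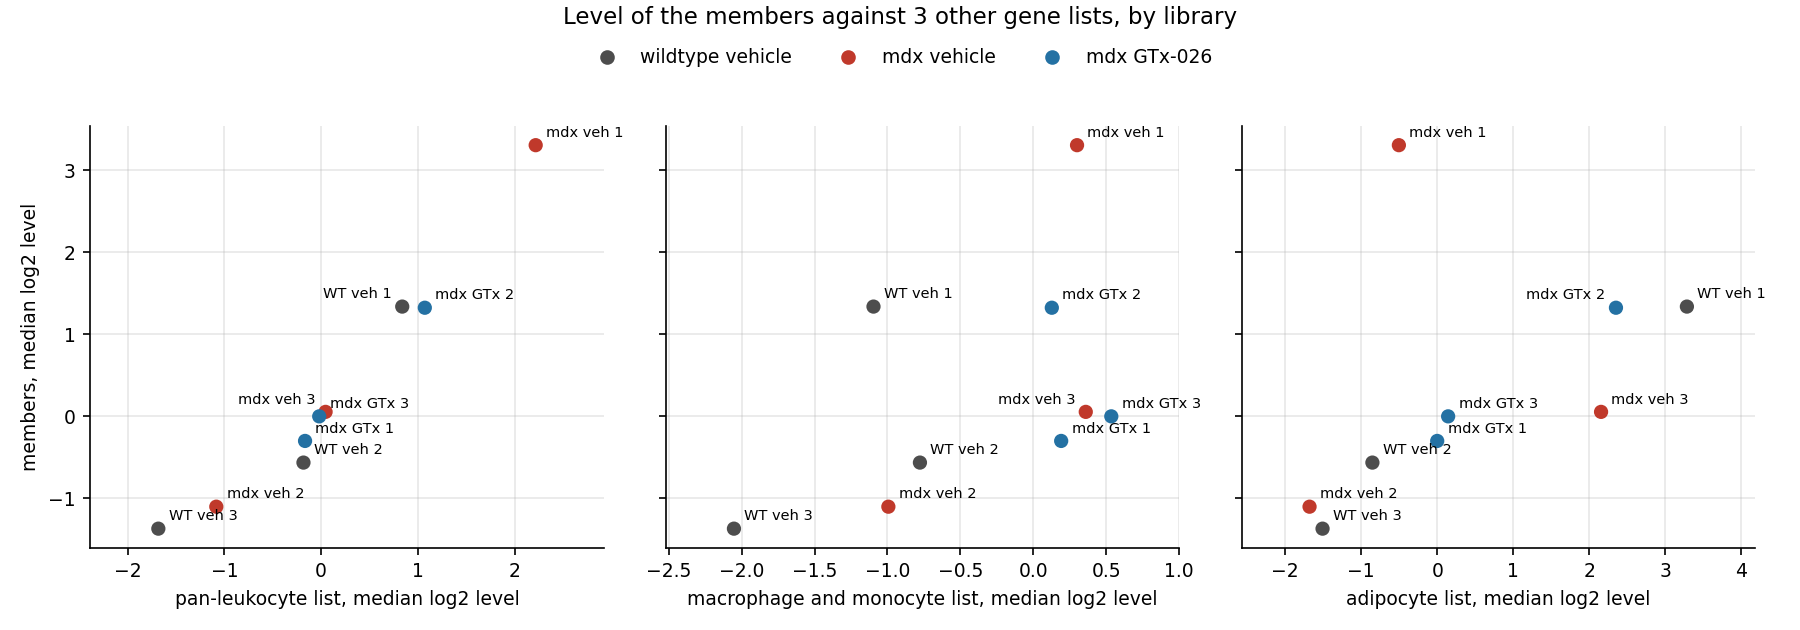
Level of the 10 genes (vertical, median log2 relative to each gene's own median) against that of the pan-leukocyte, macrophage and monocyte, and adipocyte lists (horizontal, same scale), one point for each of the 9 libraries. The points rise together for pan-leukocyte genes (r of 0.974), while mdx vehicle 1 lies at −0.50 on the adipocyte axis and wildtype vehicle 1 at −1.10 on the macrophage axis.

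Fat and muscle markers also varied between libraries. The adipocyte list, 7 of 9 genes, was at 3.28, −0.85 and −1.51 in wildtype vehicle, −0.50, −1.68 and 2.16 in mdx vehicle, and 0, 2.35 and 0.14 in mdx GTx-026. It was thus high in 2 of the 3 peak libraries and not in mdx vehicle 1, and high in mdx vehicle 3, where the 10 genes were not. Its summed level ran from 474.3 to 2234 CPM in the wildtype vehicle libraries, 320.2 to 1568 CPM in mdx vehicle and 727.3 to 1511 CPM in mdx GTx-026. Its r with the 10 genes was 0.444, and 0.921 without mdx vehicle 1 and wildtype vehicle 3. Cfd, the protease adipsin of fat cells, was at 864.9 CPM in wildtype vehicle 1 and 424.2 CPM in mdx GTx-026 2, and at 40.3 CPM in mdx vehicle 1. Plin4, the most abundant gene of the list, was instead between 362.6 and 369.8 CPM in wildtype vehicle. It was highest in mdx vehicle 2, at 734.9 CPM. The muscle fibre list, 12 of 12 genes, was lowest in mdx vehicle 1 at −0.49 and between −0.28 and 0.30 in the others. What part fat, muscle or other tissue in the piece had in the levels of the 10 genes was not tested.

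**Figure D5:**
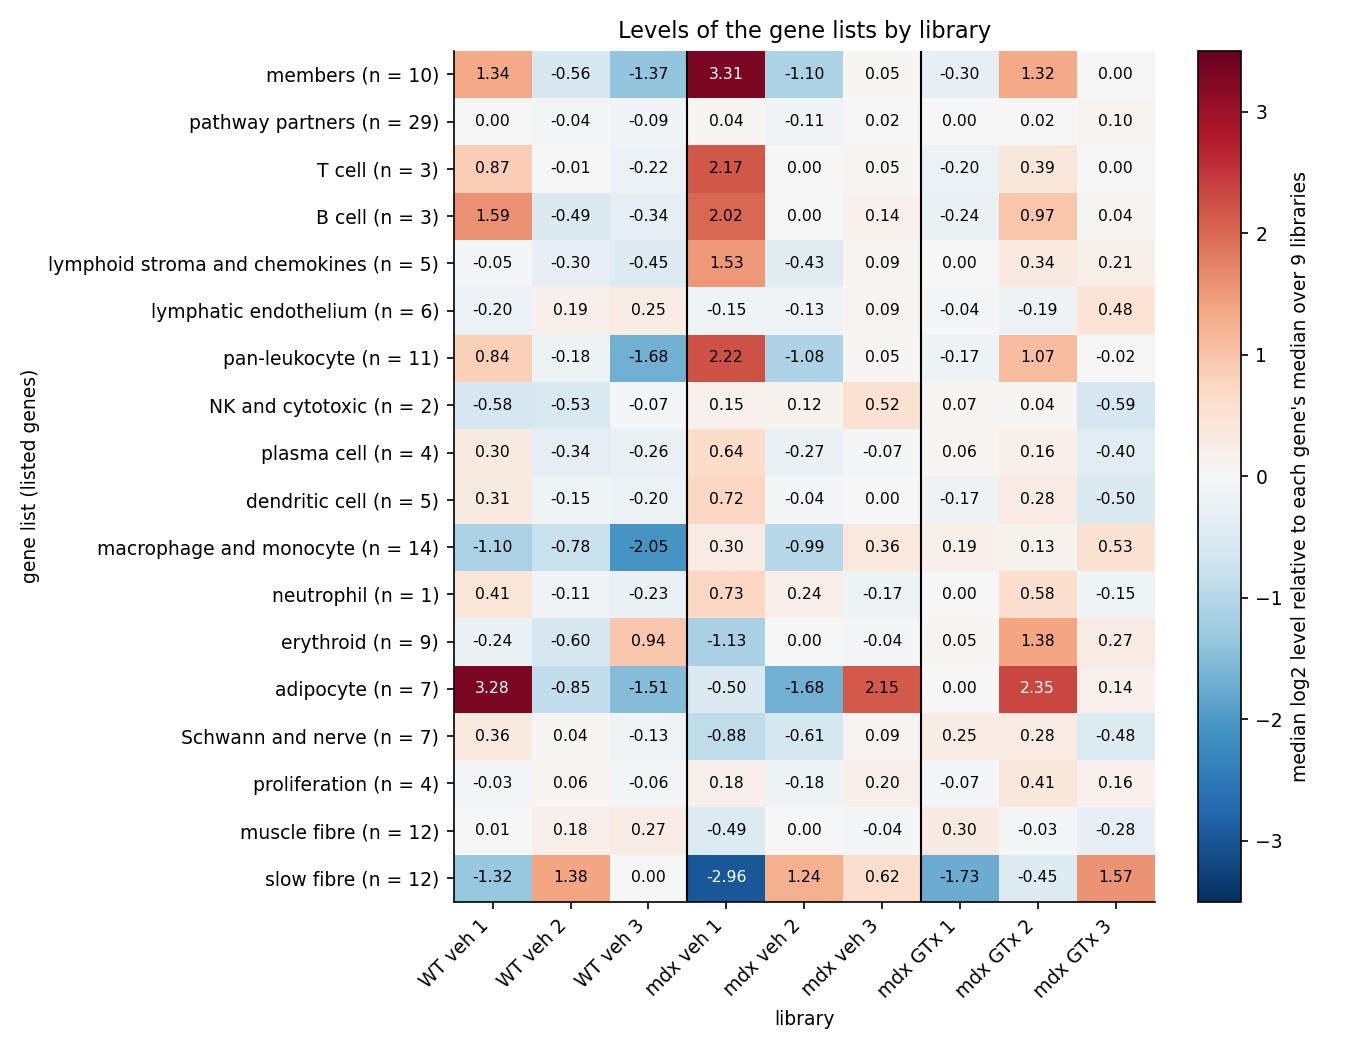
Levels of the 10 genes and of 17 gene lists (rows, with the number of genes that had values) in the 9 libraries (columns), coloured from low in blue to high in red on a median log2 scale. The row of the 10 genes, at 3.31 in mdx vehicle 1, is followed most closely by the pan-leukocyte, T-cell and B-cell rows at 2.22, 2.17 and 2.02 there, whereas the slow-fibre row is at −2.96.

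Among 10336 other genes at 5 CPM or more on average, 86 had a Pearson r of 0.95 or more with the level of the 10 genes over the 9 libraries. Without mdx vehicle 1, 63 of the 86 still had an r of 0.90 or more. The 12 closest were Prkcb, Gmip, Crlf3, Thy1, Lcp1, Shisa5, Rac2, Il16, BC017643, Fam208a, Fam111a and Fmnl1, with r from 0.994 down to 0.981. Prkcb, a protein kinase C of B-cell receptor signalling, was at 17.0, 5.06 and 3.60 CPM in the wildtype vehicle libraries, 48.4, 3.57 and 6.32 CPM in the mdx vehicle ones, and 4.99, 14.7 and 6.72 CPM in the treated ones. Thy1, a surface protein of mouse T cells that fibroblasts and nerve also carry, was at 57.8 CPM in mdx vehicle 1 and 8.15 to 23.8 CPM elsewhere.

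For Ccl21a alone the 5 closest genes were Il2rg, Gm1987, Prkcb, Icosl and Acap1. Il2rg, the common receptor chain for interleukins of lymphocytes, had an r of 0.995 and was at 15.7, 2.97 and 2.62 CPM in the wildtype vehicle libraries, 69.5, 1.80 and 3.15 CPM in the mdx vehicle ones, and 2.45, 16.0 and 2.94 CPM in the treated ones. Icosl, which encodes the ligand of the T-cell co-stimulator Icos, was at 50.8 CPM in mdx vehicle 1, 13.02 CPM in wildtype vehicle 1 and 15.9 CPM in mdx GTx-026 2. Its other values lay between 1.86 and 3.71 CPM. The points of these correlations share libraries and depth, and no p-value is given for them.

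The promoters of the 10 genes, which were chosen for shared peaks, were read from RefSeq's windows of 250 bases before to 50 after each start. Windows were there for 8 of the 10 genes and came to 10 promoters on GRCm38.p6, 3 of them of Arhgdib. The letters GGAAGT, or ACTTCC on the other strand, form the core of sites of ETS factors such as PU.1, which act in blood cells. They stood in 5 of the 10 promoters, 50% of them, against 23.8% of 32851 promoters of all genes. The 5 belonged to Arhgdib, Cd53, Dock2, Laptm5 and Was. The letters TGTGGT, known from RUNX factors, stood in 4 of the 10 promoters, 40% against 16.8%, and TATAAA in 2, 20% against 13.6%. GGGCGG, the GC box, stood in 1, 10% against 35.7%, as did TGGGAA, known from Ikaros, 10% against 25.6%, and the NF-kappaB motif, 10% against 8.46%. CANNTG, the E-box, stood in all 10, against 72.3%. All 7 motifs were searched on both strands, and matches of different motifs may overlap. The motif letters were chosen with these sequences in view, so the shares are descriptions, and a match is a run of letters and not a site.

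The promoters of Was, Laptm5, Dock2 and Cd53 are shown for the ETS letters, given in capitals, and that of Ccl21a as the stromal gene of the set, which lacks them. Each is given from its own strand, 5′ to 3′. The windows are chrX:8090442-8090741 for Was, chr4:130913066-130913365 for Laptm5, chr11:34783856-34784155 for Dock2, chr3:106790100-106790399 for Cd53 and chr4:42773942-42774241 for Ccl21a, of which Laptm5 alone is on the plus strand.
Was: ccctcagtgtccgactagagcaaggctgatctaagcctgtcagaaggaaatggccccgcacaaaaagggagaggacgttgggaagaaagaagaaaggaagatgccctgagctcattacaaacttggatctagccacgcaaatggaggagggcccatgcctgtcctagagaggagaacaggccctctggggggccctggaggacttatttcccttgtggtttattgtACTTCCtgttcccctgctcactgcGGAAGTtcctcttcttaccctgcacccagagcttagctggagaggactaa
Laptm5: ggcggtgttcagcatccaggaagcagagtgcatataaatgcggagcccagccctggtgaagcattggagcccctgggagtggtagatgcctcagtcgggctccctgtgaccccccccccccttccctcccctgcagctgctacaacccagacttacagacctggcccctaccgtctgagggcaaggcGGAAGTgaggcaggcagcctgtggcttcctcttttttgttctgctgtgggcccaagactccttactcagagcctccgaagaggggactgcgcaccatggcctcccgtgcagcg
Dock2: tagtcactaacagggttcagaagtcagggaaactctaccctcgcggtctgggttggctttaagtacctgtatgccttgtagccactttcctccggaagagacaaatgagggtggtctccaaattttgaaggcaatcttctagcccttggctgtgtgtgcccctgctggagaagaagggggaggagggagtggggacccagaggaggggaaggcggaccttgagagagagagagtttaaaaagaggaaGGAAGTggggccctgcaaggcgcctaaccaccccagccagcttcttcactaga
Cd53: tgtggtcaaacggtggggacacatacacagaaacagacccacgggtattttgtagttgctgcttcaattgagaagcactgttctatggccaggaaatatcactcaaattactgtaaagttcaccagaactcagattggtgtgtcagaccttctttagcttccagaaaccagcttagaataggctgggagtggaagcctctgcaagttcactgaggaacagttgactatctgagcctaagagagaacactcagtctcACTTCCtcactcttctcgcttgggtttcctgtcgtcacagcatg
Ccl21a: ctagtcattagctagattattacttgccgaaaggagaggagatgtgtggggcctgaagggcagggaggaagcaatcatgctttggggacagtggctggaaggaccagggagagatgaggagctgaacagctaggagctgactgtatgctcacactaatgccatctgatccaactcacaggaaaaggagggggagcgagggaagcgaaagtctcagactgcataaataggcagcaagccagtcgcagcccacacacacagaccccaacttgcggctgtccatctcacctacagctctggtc
The Was promoter holds the letters 2 times, once on each strand, and the Laptm5, Dock2 and Cd53 promoters hold them 1 time each.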

How the data were processed

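The table read here lists, for each of 46442 sequence records, a deposited signal per library: the values of every library lie within 0.1 read of whole multiples of 1 step. Reads recovered that way were not accepted as counts, so no count model was used. Per the file headers, the table also gives a value named de and a P value for each pair of groups. The first is read here as the authors' ratio of group means. Whether the authors' p-value is adjusted is not stated. The submitters' processing notes name the build GRCm38.p3 and, with no role or order, DESeq2 1.6.3, HTSeq 0.6.1p1, SAMtools 0.1.19, TopHat2 2.0.13 and Bowtie2 2.2.4. The annotation and strand use are not given in the sources used here.

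Records above 0 in all 9 libraries were summed by symbol, and records without a symbol (0.000646% of the total) were left out. Libraries were rescaled by an unweighted trimmed mean of log ratios (30% of ratios and 5% of levels trimmed), by factors of 0.874 to 1.30. A CPM here is based on listed reads, so a read listed for several records counts more than once. Tests used limma 3.58.1 in R 4.3.3 on log2(value + 1) of the rescaled signal, with a trended prior, all 9 libraries in 1 model, 6 residual and 3.61 prior degrees of freedom, and two-sided p-values with Benjamini-Hochberg adjustment over 15372 genes. This scale understates the fold change of low genes. The procedure was tested on simulated data. Column names give a group and a number, so each was assigned to its group only. Gene positions and exon overlaps come from GENCODE annotation of GRCm38, and shared 50-base words from its transcripts. The members, gene lists and likeness rule were chosen with earlier results of these data known. Besides the 10 genes and list genes past the threshold, the text names some of the 4 most abundant genes of each list, the 12 genes most like the members and the 5 most like Ccl21a. The rule was all 4, and those not named include Fabp4, Nrp2, Myh4 and Myh7. Nckap1l, Dock8, Csk, Arpc1b and Arpc2 were named after their values were seen. The same holds for Cd68, Mpeg1, Fcgr3, Ly6c2, Cx3cr1, Cd14, Csf1r, Mrc1, Cd163 and Fcgr1. Alternatives were another pseudocount, scaling, record sum, filter, prior and choice of groups, and leaving out each library.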

Additional observations from a re-analysis of the deposited data

How the results depend on the processing

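None of the 10 genes passed limma's threshold under any of 18 settings in any comparison, with lowest adjusted p-values of 0.218 for mdx vehicle against wildtype vehicle, 0.849 for mdx GTx-026 against mdx vehicle and 0.272 for mdx GTx-026 against wildtype vehicle. Leaving out 1 library at a time moved the median log2 fold change of the 10 genes between −0.25 and 1.86, −1.33 and 0.88, and −0.02 and 1.38 in the same order. The pan-leukocyte medians ranged from −0.23 to 1.77, −1.10 to 0.79 and −0.09 to 1.58. The cause was not tested. No other setting moved a level of the 10 genes by more than 0.35, in mdx vehicle 1 with library totals only.

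Counts over all genes moved more. In mdx vehicle against wildtype vehicle 51 genes passed, against 349 with all records summed, 6 with only the groups compared and 5 to 85 with 1 library left out. In mdx GTx-026 against mdx vehicle 2 passed, against 4 with the deposited scaling or library totals only, 98 with all records summed, 1 with a constant prior or only the groups compared, and 0 to 1 with 1 library left out (at an unadjusted p under 0.05 there were 481 with all libraries). In mdx GTx-026 against wildtype vehicle 231 passed, against 538, 414 and 43 to 375. Higher and lower calls split 32 to 19 in the first comparison, but 41 to 13 with the deposited scaling and 42 to 12 with library totals, and in the third 167 to 64, but 204 to 47 and 194 to 41. Those scalings moved the median of all genes by up to 0.19. No paired analysis was possible because library numbers in the column names are not tied to animals and the columns carry only a group.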
